A study of Homo sapiens with 6 samples.

Results

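The genes that write, erase and read histone acyl marks were followed in PC9-BrM3 cells with and without silencing of AKR1B10. They comprise 32 genes chosen by name from the 58735 genes of the expression table: 12 writers (acetyltransferases and the coactivators that work with them), 18 erasers (11 zinc-dependent histone deacetylases and 7 sirtuins) and 2 bromodomain readers of the BET family. The rule takes the genes by name and uses no measured value, but the list was chosen with earlier results of these data known. Of the 32, 28 reached a mean level of at least 1 FPKM and were tested among 13150 genes.

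PC9-BrM3 is a brain-metastatic derivative of the human lung adenocarcinoma line PC9, obtained by repeated injection into immunodeficient mice and recovery from their brain metastases. The study silenced AKR1B10, an aldo-keto reductase, and sequenced RNA to ask how the enzyme acts on glycolytic (Warburg) metabolism in cells that resist the antifolate pemetrexed. RNA of 3 libraries came from BrM3-shAKR1B10, which carries shRNA vector 1 against AKR1B10 in the lentiviral vector LV2, and RNA of 3 libraries from BrM3-shNC, which carries a negative control shRNA and whose genotype the labels give as WT. All 6 were grown in routine culture, with no drug named. A single shRNA against AKR1B10 was used in these libraries, so that an effect of AKR1B10 loss and an effect of that shRNA on other transcripts cannot be told apart here. Nothing states whether the replicates were separate cultures, and the p-values therefore measure the spread between these libraries, which may be technical. BrM3-shNC replicate 1 stood apart in its reads from replicates 2 and 3, with a chi-square per gene of 4.88 and 5.42. The other pairs within a group had 2.45 to 2.7.

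Histone acetyltransferases move an acetyl group from acetyl-CoA onto lysines of the histone tails, and deacetylases take it off, either with a zinc ion (the HDACs) or by consuming NAD (the sirtuins). Bromodomain proteins bind the acetylated lysines and bring in the transcription machinery. Lactylation puts a lactyl group, derived from lactate, on the same kinds of lysine. Several of these enzymes serve both marks: p300 can transfer lactyl groups, and class I HDACs and some sirtuins can remove them. The table measures transcripts only, and no mark, protein or enzyme activity.

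The silenced gene was checked first. AKR1B10 was 108.3, 107.2 and 110.2 FPKM in the silenced libraries, and 798.7, 775 and 772 FPKM in the controls. The 3 libraries labelled as silenced, BrM3-shAKR1B10, were thus the low ones. The reads on genes ranged from 16964504 to 18709028 per library, a depth at which 3 reads equal 0.163 to 0.177 FPKM for a length of 1000 bases. Transcripts of dividing cells were lower in BrM3-shAKR1B10: 48 of 48 G2/M phase markers and 32 of 37 tested S phase markers fell at an adjusted p under 0.05 (limma), beside 23.1% of all genes tested, and their summed levels were 1172 to 1187 against 2231 to 2246 FPKM and 540.4 to 547.4 against 746.5 to 759 FPKM. Their part in the results below was not tested. The epithelial markers summed to between 3155 and 3540 FPKM in every library, whereas all 6 markers of lung adenocarcinoma lineage, NKX2-1 and the surfactant genes among them, stayed under 1 FPKM on average. Markers of fibroblasts (COL1A2, DCN and LUM listed at 0), immune cells (LYZ listed at 0), endothelium (KDR listed at 0) and neural or glial cells summed to at most 3.557 FPKM for any of these lists in any library. In BrM3-shAKR1B10 and BrM3-shNC these sums were 1.199 to 1.367 and 2.028 to 2.077 FPKM for the fibroblast list, 1.155 to 1.185 and 1.317 to 1.64 FPKM for the immune list, 2.104 to 2.373 and 1.523 to 1.791 FPKM for the endothelial list, and 2.517 to 2.696 and 3.444 to 3.557 FPKM for the neural and glial list. The larger part of the fibroblast, endothelial and neural sums came from COL1A1 (1.22 against 1.98 FPKM, adjusted p = 0.00319), CDH5 (1.85 against 1.14 FPKM, adjusted p = 0.0039) and MBP (2.56 against 3.41 FPKM, adjusted p = 0.00225, limma), and their part in the results was not tested.

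HDAC1 was the most abundant of the 32 genes, with 75.2 ± 1.91 FPKM (SD, n = 3) in BrM3-shNC, followed by BRD2 with 37.0 ± 0.748 FPKM. HAT1 (21.3 ± 1.5 FPKM), SIRT7 (18.7 ± 1.06), NCOA3 (18.2 ± 0.565), KAT2A (18.0 ± 0.614) and HDAC3 (17.9 ± 0.633) came next, and the last 4 of these neighbours lie within their spreads of each other. EP300 and CREBBP were at 10.1 ± 0.00874 and 8.65 ± 0.316 FPKM. At the other end, KAT2B, HDAC8, HDAC9 and SIRT4 stayed under 1 FPKM on average. FPKM relates reads to the combined length of all annotated exons of a gene, so that genes with long annotated models, such as KAT6B with 32495 bases, HDAC8 with 22986 and HDAC2 with 15461, come out lower than their main transcript alone would.

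**Figure D1:**
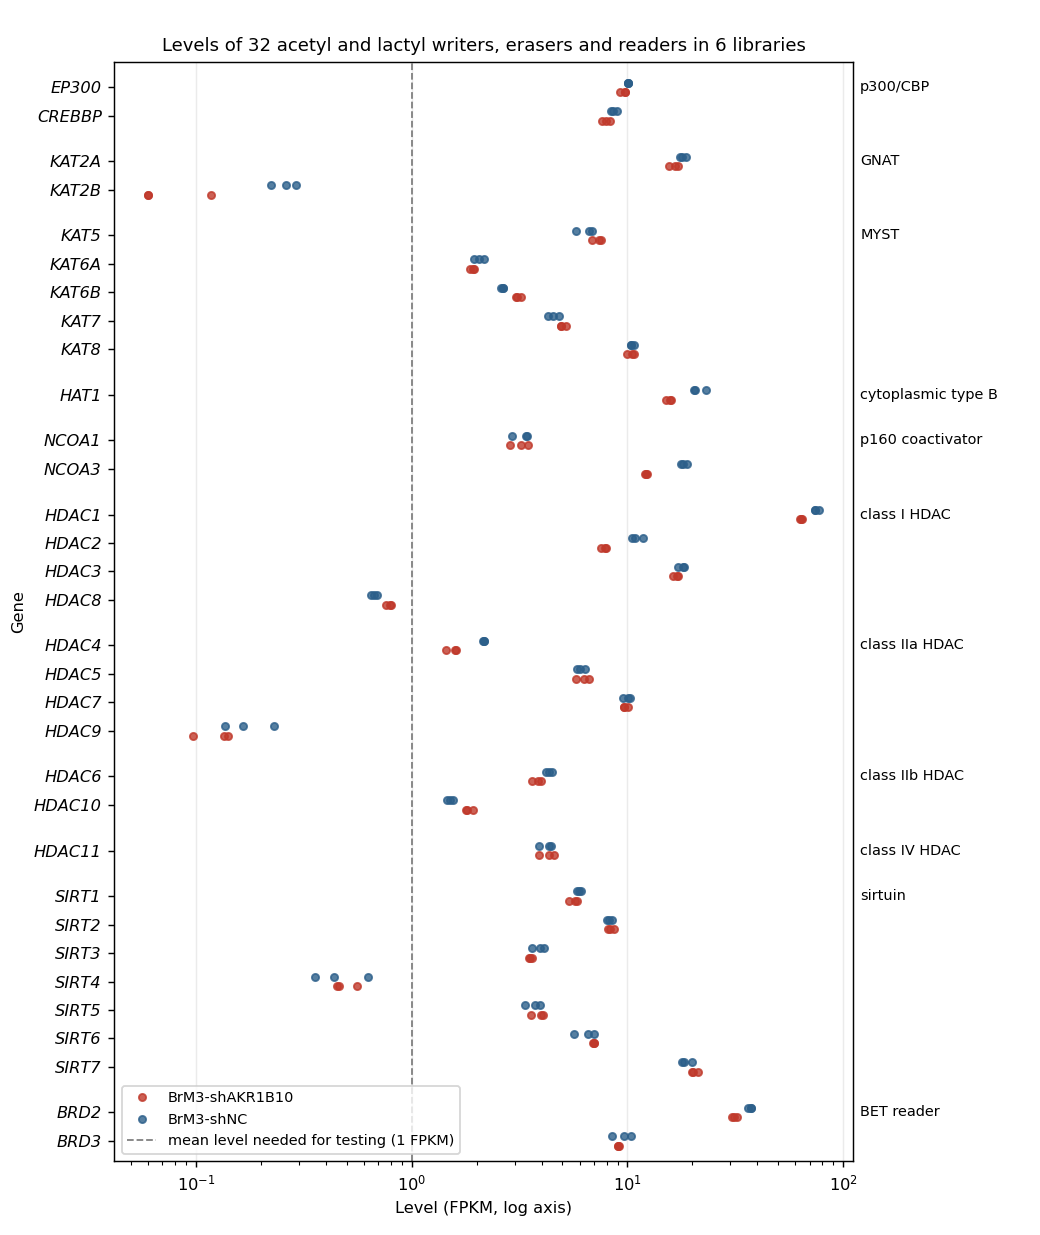
Level of each of the 32 genes in FPKM on a log axis, with a point for every library of BrM3-shAKR1B10 (red) and BrM3-shNC (blue), ordered by enzyme class. HDAC1 sits highest, KAT2B and HDAC9 lowest, and 4 genes lie left of the dashed line at 1 FPKM and were not tested.

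Of the 28 genes tested, 8 had an adjusted p below 0.05 between the groups (limma, with Benjamini-Hochberg adjustment over the 13150 genes). NCOA3, HDAC2, HDAC4, HAT1, BRD2, HDAC1 and HDAC6 fell in BrM3-shAKR1B10, and KAT6B rose. The 7 that fell are 25.0% of those tested, beside 23.1% of all genes tested, and the 1 that rose is 3.57%, beside 19.4% of all genes. Only NCOA3 also passed the fold threshold of the study, a log2 fold change beyond 0.5 in either direction (hereafter a call): 1 of 28 was called lower, beside 7.45% of all genes, and 0 were called higher, beside 5.83%. At an unadjusted p under 0.05, limma gave 9 genes lower and 4 higher (32.1% and 14.3%, beside 27.3% and 23.8% of all genes), the latter all under the fold threshold, and voom on recovered reads also called 0 higher. The highest log2 fold change among the 28 was 0.27, and 5 had a higher level in all BrM3-shAKR1B10 libraries than in any BrM3-shNC library (17.9%, beside 25.5% of all genes), while 12 had a lower one (42.9%, beside 29.2%). The median log2 fold change was -0.07 over these genes and -0.01 over all genes tested, and the median size, regardless of sign, was 0.12 against 0.20. The 95% intervals of the 20 genes that did not pass lay between -0.31 and 0.50.

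**Figure D2:**
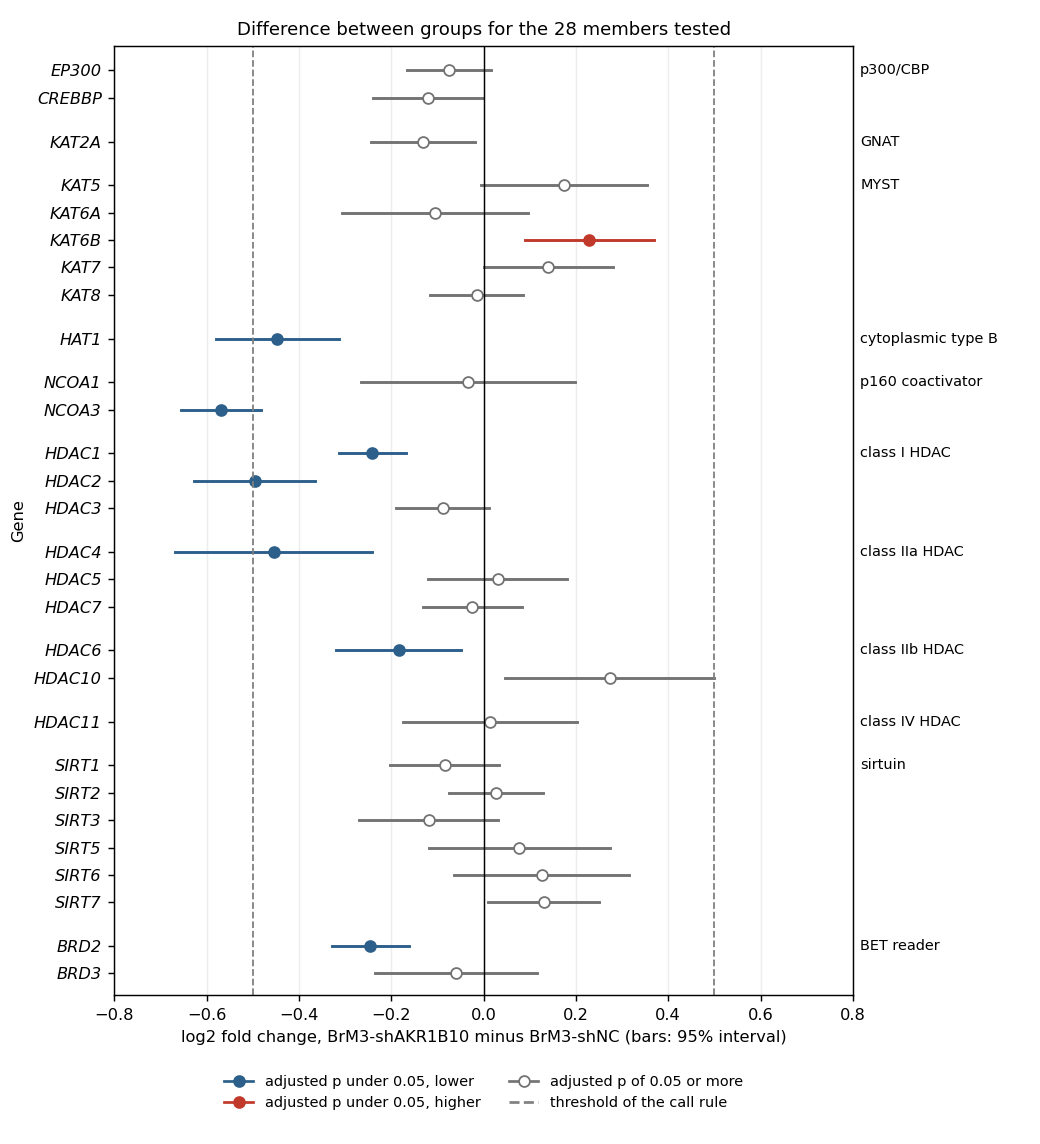
log2 fold change of BrM3-shAKR1B10 minus BrM3-shNC for the 28 genes tested, with 95% intervals, ordered by class, and dashed lines at the call threshold of 0.5 in either direction. Filled points passed an adjusted p of 0.05, of which 7 lie left of 0 and KAT6B right of it.

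NCOA3, HAT1 and HDAC1 each have a single start in the RefSeq promoter table, and their promoters are shown because the transcripts of all 3 fell. HDAC2 also fell and has a single start there, but 137 of the 250 bases of its window lie in annotated exons, so that it is not shown, and none of the motifs searched was in it. Each line gives the 250 bases before the start, 5′ to 3′ on the gene's own strand, from RefSeq on GRCh38.p14, with CCAAT boxes (CCAAT) and GC boxes (GGGCGG) in capitals on either strand. The windows are chr20:47501637-47501886 for NCOA3, chr2:171922211-171922460 for HAT1 and chr1:32291833-32292082 for HDAC1, all on the plus strand. They lie upstream of the exons annotated in GENCODE 29, apart from the last 13 bases of the HAT1 window.
NCOA3: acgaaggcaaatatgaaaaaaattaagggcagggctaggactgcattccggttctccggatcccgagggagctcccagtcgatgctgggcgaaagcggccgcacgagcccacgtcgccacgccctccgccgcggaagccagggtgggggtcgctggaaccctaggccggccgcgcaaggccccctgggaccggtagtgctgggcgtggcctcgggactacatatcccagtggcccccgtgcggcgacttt
HAT1: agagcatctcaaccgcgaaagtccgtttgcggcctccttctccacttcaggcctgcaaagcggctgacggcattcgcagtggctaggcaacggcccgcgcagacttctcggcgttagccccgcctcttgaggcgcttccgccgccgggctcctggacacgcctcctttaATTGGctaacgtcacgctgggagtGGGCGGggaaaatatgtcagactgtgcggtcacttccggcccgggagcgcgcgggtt
HDAC1: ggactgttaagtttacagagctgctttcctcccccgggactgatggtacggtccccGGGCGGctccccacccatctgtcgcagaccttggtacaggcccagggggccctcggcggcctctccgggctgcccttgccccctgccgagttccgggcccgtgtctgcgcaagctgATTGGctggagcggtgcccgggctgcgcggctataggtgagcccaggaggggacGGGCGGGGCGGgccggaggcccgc
HAT1 held a reversed CCAAT box whose first base lies at position -81 and a GC box at -57, counted back from the start. HDAC1 held a reversed CCAAT box at -78 and GC boxes at -194, -24 and -19, of which the last pair overlap. NCOA3 held none of the motifs searched, although 66.4% of its window is G or C. Besides the boxes above, the search covered, on both strands, the CRE (TGACGTCA), the E-box (CACGTG), the CHR element of cell cycle genes (TTTGAA) and 3 spellings of the E2F site (TTTCGCGC, TTTGGCGC and TTTCCCGC). Of the 32 genes, 28 had promoters in the table, 49 in all. The median share of G and C was 66.4% in their windows and 58% in those of all promoters. Some windows of a gene with several starts overlap, as in HDAC6 and HDAC9, so that a box there can count more than once. A GC box occurred in 53.1% of these 49 and in 42.5% of all 34943 promoters, a CCAAT box in 24.5% and 32%, a CHR element in 8.16% and 13.4%, an E-box in 6.12% and 6.32%, and a CRE in 2.04% and 1.63%. Of the E2F spellings, TTTCCCGC occurred in the promoter of SIRT6 and the other two in none of the 49, while 1.39%, 0.429% and 0.547% of all promoters hold TTTCCCGC, TTTCGCGC and TTTGGCGC. These matches describe letters in a window and not binding.

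Among the writers tested, NCOA3 changed the most. NCOA3 (ENSG00000124151, chromosome 20 from 47501902 to 47656877) encodes the p160 coactivator SRC-3, which binds nuclear receptors and brings p300 and CBP to their target genes. Its level was 12.1, 12.3 and 12.2 FPKM in the silenced libraries and 18.8, 17.7 and 18.1 FPKM in the controls. Every silenced library lay below every control library, and the mean was 67.2% of the control. In limma the log2 fold change came to -0.57, with a standard error of 0.0362 and an adjusted p of 7.34e-05. The related coactivator NCOA1 ranged from 2.85 to 3.46 FPKM over the 6 libraries with overlapping groups, and its log2 fold change was -0.03 (95% interval -0.27 to 0.20). The ratio of NCOA3 to NCOA1 accordingly lay between 3.56 and 4.28 in the silenced libraries and between 5.26 and 6.03 in the controls. NCOA2, the remaining p160 coactivator and not among the 32 genes, was 3.63 ± 0.398 and 3.24 ± 0.125 FPKM (adjusted p = 0.198, limma).

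HAT1 (ENSG00000128708, chromosome 2 from 171922448 to 171983682) is the type B acetyltransferase, which acts on newly made histone H4 before it enters chromatin. It was 15.8, 15.9 and 15.1 FPKM in the silenced libraries and 23.1, 20.6 and 20.4 FPKM in the controls. The groups did not overlap, and replicate 1 was the highest of the control libraries. In limma the log2 fold change came to -0.45, with a standard error of 0.0557 and an adjusted p of 0.00109, and it ranged from -0.48 to -0.39 over the fits that left out 1 library. RBBP7, which binds histones in the same type B enzyme as well as in NuRD and SIN3, was 28.1 ± 0.523 against 37.5 ± 0.487 FPKM (log2 fold change -0.41, adjusted p = 0.000126, limma). It was named here for that shared role with its value known.

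EP300 and CREBBP, the paralogous coactivators p300 and CBP that acetylate histones at enhancers and promoters, did not pass the test. EP300 was 9.25, 9.74 and 9.75 FPKM in the silenced libraries and between 10.08 and 10.1 FPKM in the controls. CREBBP was 7.58, 7.97 and 8.28 FPKM in the silenced libraries and 8.99, 8.36 and 8.59 FPKM in the controls. For each gene the silenced libraries lay below the controls, by little. The log2 fold changes were -0.07 (95% interval -0.17 to 0.02, adjusted p = 0.157) for EP300 and -0.12 (95% interval -0.24 to -0.002, adjusted p = 0.0938) for CREBBP, and EP300 came to -0.04 with TPM scaling and with quantile scaling.

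Of the GNAT enzymes, KAT2A is the catalytic subunit of the SAGA and ATAC complexes. Its level was 16.5 ± 0.763 FPKM in the silenced libraries and 18.0 ± 0.614 FPKM in the controls (adjusted p = 0.0623), and 10.7% of its exonic bases are shared with the exons of another gene. Its paralog KAT2B was near the limit of detection, with 6, 12 and 6 reads in the silenced libraries and 23, 25 and 30 reads in the controls. These counts correspond to 0.0794 ± 0.0334 and 0.259 ± 0.0348 FPKM. The ranges did not overlap, but KAT2B was under the level needed for a test. With no filter on level its log2 fold change was -1.01, with a standard error of 0.270 and an adjusted p of 0.056 (limma).

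Of the 5 MYST enzymes, 1 passed the test and rose (20%, beside 19.4% of all genes). KAT6B, which like its paralog KAT6A is a catalytic subunit of the MOZ/MORF complexes, was the only gene of the 32 that rose at an adjusted p under 0.05. It was 3.07, 3.20 and 3.06 FPKM in the silenced libraries and 2.66, 2.65 and 2.61 FPKM in the controls. The silenced libraries all lay above the controls, and limma gave 0.23 on the log2 scale, with a standard error of 0.0583 and an adjusted p of 0.0198. The adjusted p was above 0.05 without BrM3-shAKR1B10 replicate 2 (0.0665), without BrM3-shNC replicate 2 (0.0526) and without BrM3-shNC replicate 3 (0.0585). KAT6A was 1.91 ± 0.0415 against 2.06 ± 0.114 FPKM (log2 fold change -0.10, 95% interval -0.31 to 0.10). Its log2 fold change was -0.07 with TPM scaling and also without BrM3-shNC replicate 1. KAT7, the HBO1 enzyme that acetylates histones near replication origins and in gene bodies, was 5.00 ± 0.168 against 4.53 ± 0.256 FPKM (adjusted p = 0.0979). KAT5, the TIP60 enzyme of DNA repair and transcription, was 7.26 ± 0.332 against 6.43 ± 0.583 FPKM (adjusted p = 0.107), with 38.6% of its exonic bases shared with RNASEH2C on the opposite strand. KAT8, the H4 acetyltransferase of the MSL and NSL complexes, was at 10.4 ± 0.399 and 10.5 ± 0.209 FPKM, with overlapping groups (log2 fold change -0.015, 95% interval -0.12 to 0.09).

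Of the class I HDACs, HDAC1 and HDAC2 fell. HDAC1 and HDAC2 are the paired catalytic subunits of the NuRD, SIN3, CoREST and MiDAC complexes. HDAC1 (ENSG00000116478, chromosome 1 from 32292086 to 32333635) was 64.1, 62.9 and 63.7 FPKM in the silenced libraries and 74.2, 74.0 and 77.4 FPKM in the controls. HDAC2 (ENSG00000196591, chromosome 6 from 113933028 to 114011308) was 7.84, 7.99 and 7.58 FPKM in the silenced libraries and 11.8, 10.8 and 10.5 FPKM in the controls. Neither gene overlapped between the groups. HDAC1 stood at 84.6% of the control (log2 fold change -0.24, standard error 0.0307, adjusted p = 0.00119, limma). HDAC2 stood at 70.5% (log2 fold change -0.496, standard error 0.0545, adjusted p = 0.000644, limma), just short of the fold threshold. It crossed that threshold under 5 of 16 alternative analyses, of which 4 left out a library: BrM3-shAKR1B10 replicate 1 or 2 (-0.50 and -0.51) and BrM3-shNC replicate 2 or 3 (-0.51 and -0.53). The ratio of HDAC1 to HDAC2 was 7.87 to 8.41 in the silenced libraries and 6.26 to 7.36 in the controls, and an exact permutation test of 3 against 3 libraries cannot go below p = 0.10 for it. At most 2 reads in any library lay on the processed copies HDAC1P1 and HDAC1P2.

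HDAC3, the deacetylase of the NCoR and SMRT corepressors, was 17.2, 17.0 and 16.2 FPKM in the silenced libraries and 18.1, 17.1 and 18.3 FPKM in the controls, and the groups overlapped (log2 fold change -0.09, 95% interval -0.19 to 0.01). Its log2 fold change was -0.05 with TPM scaling and -0.04 with quantile scaling. HDAC8, which deacetylates the cohesin subunit SMC3, was 0.788 ± 0.0236 and 0.672 ± 0.0219 FPKM from 261 to 331 reads and was not tested. HDAC1 made up 71.5% of the summed class I FPKM in the silenced libraries and 71.8% in the controls. The sum was 102.6 to 106.9 FPKM in the controls and 88.29 to 89.92 FPKM in the silenced libraries. That share depends on exon models of 3963 bases for HDAC1, 15461 for HDAC2 and 22986 for HDAC8. In reads, HDAC1 had 4477 to 5596 and HDAC2 2078 to 3361 per library. In bulk RNA, fewer cells of a kind and less RNA per cell cannot be told apart.

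The class IIa HDACs shuttle between cytoplasm and nucleus and repress MEF2 targets, and 1 of the 3 tested fell (33.3%, beside 23.1% of all genes). HDAC4 (ENSG00000068024, chromosome 2 from 239048168 to 239401654) was 1.58, 1.61 and 1.45 FPKM in the silenced libraries and 2.14, 2.16 and 2.17 FPKM in the controls. The control libraries were nearly equal and lay above every silenced library (log2 fold change -0.45, standard error 0.0891, adjusted p = 0.00719, limma). HDAC5 was 6.22 ± 0.409 against 6.09 ± 0.270 FPKM and HDAC7 was 9.78 ± 0.291 against 9.95 ± 0.379 FPKM, each with overlapping groups and 95% intervals of -0.12 to 0.18 and -0.13 to 0.08. Of the exonic bases of HDAC7, 11.2% are shared with genes on the opposite strand. HDAC9 had only 29 to 71 reads and was not tested.

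Of the class IIb pair, HDAC6 fell by a small amount. HDAC6, the cytoplasmic deacetylase of tubulin, was 3.97, 3.62 and 3.83 FPKM in the silenced libraries and 4.33, 4.47 and 4.21 FPKM in the controls. It passed narrowly (log2 fold change -0.18, standard error 0.0567, adjusted p = 0.0389, limma), with every silenced library below the controls. Leaving out a library raised the adjusted p above 0.05 in 5 of 6 cases: to 0.11 and 0.0819 without BrM3-shAKR1B10 replicate 2 or 3, and to 0.0848, 0.115 and 0.0618 without BrM3-shNC replicate 1, 2 or 3. HDAC10, a polyamine deacetylase, was 1.92, 1.79 and 1.80 FPKM in the silenced libraries and 1.45, 1.5 and 1.55 FPKM in the controls. Its silenced libraries all lay above the controls, but it missed the threshold (log2 fold change 0.27, adjusted p = 0.057), and 55.8% of its exonic bases are shared with MAPK12 on the same strand. HDAC11, the single class IV enzyme, was 4.26 ± 0.324 against 4.22 ± 0.288 FPKM (log2 fold change 0.014, 95% interval -0.17 to 0.20).

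No sirtuin passed the limma test, and 1 of the 6 tested, SIRT7, had an unadjusted p under 0.05 and was higher (16.7%, beside 23.8% of all genes). SIRT7 passed under 4 alternatives, among them voom on recovered reads (log2 fold change 0.15, adjusted p = 0.015) and the fit without BrM3-shNC replicate 3 (log2 fold change 0.18, adjusted p = 0.0265). Of the 6, 2 had log2 fold changes below 0 and 4 above, between -0.12 and 0.13. SIRT7, the nucleolar sirtuin and the most abundant, was 19.9, 20.2 and 21.2 FPKM in the silenced libraries and 17.9, 18.3 and 19.9 FPKM in the controls, at the edge of overlap (log2 fold change 0.13, adjusted p = 0.0773). SIRT1, the nuclear deacetylase of histones and p53, was 5.36, 5.73 and 5.85 FPKM against 5.99, 6.12 and 5.86 FPKM (log2 fold change -0.08, adjusted p = 0.216, and -0.05 without BrM3-shAKR1B10 replicate 1). SIRT2, mostly cytoplasmic, was 8.38 ± 0.237 against 8.22 ± 0.223 FPKM, and SIRT6, which acts on chromatin at telomeres and breaks, was 6.97 ± 0.0240 against 6.40 ± 0.694 FPKM. The mitochondrial SIRT3 and SIRT5 were 3.55 ± 0.0591 against 3.87 ± 0.248 FPKM and 3.88 ± 0.260 against 3.67 ± 0.296 FPKM, with 16.1% of the exonic bases of SIRT5 shared with an antisense gene. The mitochondrial SIRT4 rested on 8 to 14 reads and was not tested. The summed sirtuin level was 48.77 to 50.09 FPKM in the silenced libraries and 45.56 to 48.55 FPKM in the controls. The 11 zinc-dependent HDACs together were 115.1 to 118.5 FPKM against 130.8 to 136.1 FPKM, of which HDAC1 made up the larger part.

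Of the BET readers, BRD2 fell. BRD2 (ENSG00000204256, chromosome 6 from 32968660 to 32981505) binds acetylated histones and recruits transcription elongation factors. It was 30.5, 32.2 and 31.1 FPKM in the silenced libraries and 37.4, 36.2 and 37.5 FPKM in the controls, and all silenced libraries lay below the controls (log2 fold change -0.25, standard error 0.0346, adjusted p = 0.00186, limma). With quantile scaling the log2 fold change of BRD2 was -0.16 (adjusted p = 0.0199). Of its exonic bases, 11.9% are shared with other genes. BRD3 was 9.07, 9.05 and 9.15 FPKM in the silenced libraries and 8.49, 10.4 and 9.66 FPKM in the controls, so that the silenced libraries lay inside the control range (log2 fold change -0.06, 95% interval -0.24 to 0.12), and 18.6% of its exonic bases are shared with BRD3OS on the opposite strand.

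**Figure D3:**
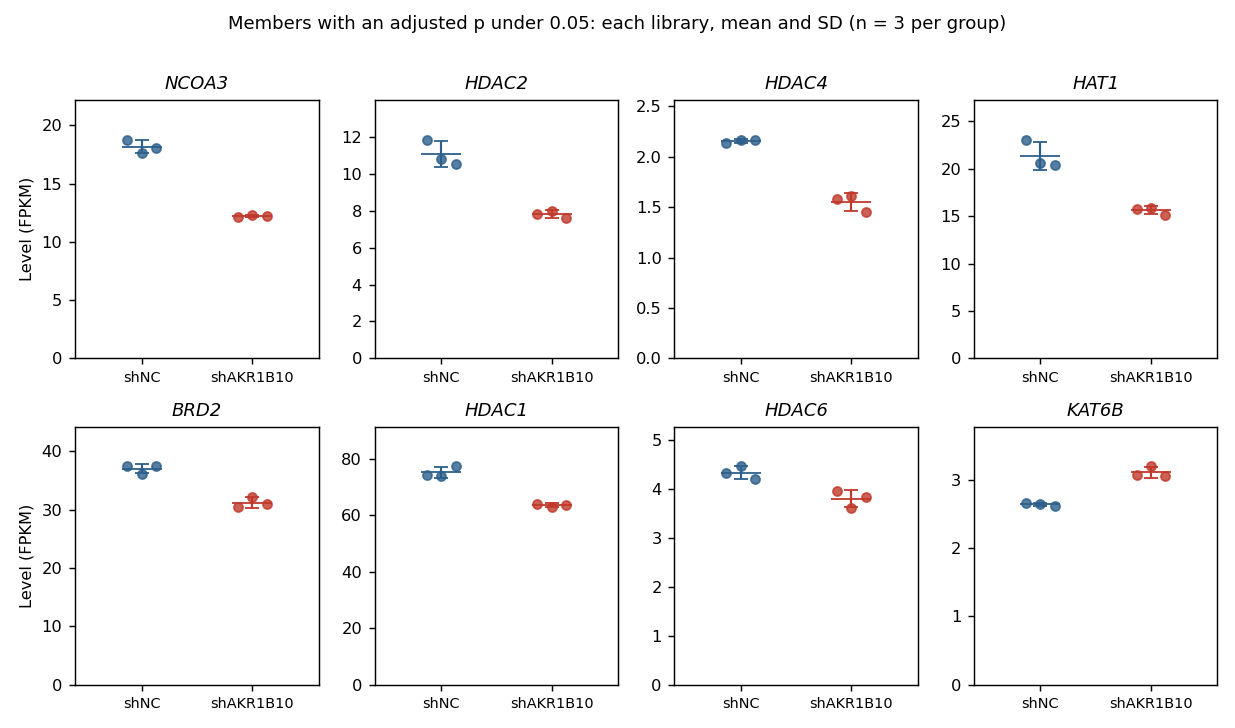
Level in FPKM, from 0, of the 8 genes with an adjusted p under 0.05, with a point for every library and the mean and SD of each group (n = 3). In all 8 the groups do not overlap, as in 54.7% of all genes tested, with BrM3-shAKR1B10 below BrM3-shNC for 7 genes and above it for KAT6B.

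The enzymes act within complexes, and 5 lists of 173 genes around them were read from the same fit: subunits of acetyltransferase complexes, subunits of deacetylase complexes, other acetyl-lysine readers, other acetyltransferases, and suppliers of acetyl-CoA, lactyl groups and NAD. Of the 163 tested, 60 fell at an adjusted p under 0.05 and 26 rose (36.8% and 16.0%, beside 23.1% and 19.4% of all genes tested). With the fold threshold, 11 were called lower and 2 higher (6.75% and 1.23%, beside 7.45% and 5.83%). The median log2 fold change was -0.11.

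Among the subunits of deacetylase complexes, 19 of 41 fell and 3 rose (46.3% and 7.32%, beside 23.1% and 19.4% of all genes), and the median log2 fold change was -0.16. The 4 called lower were SAP30, KDM1A, PHF21A and HMG20B. SAP30, a subunit that stabilizes the SIN3 complex, was 2.27, 2.35 and 2.78 FPKM in the silenced libraries and 7.68, 6.59 and 6.35 FPKM in the controls (log2 fold change -1.44, standard error 0.103, adjusted p = 0.000114, limma). KDM1A, the lysine demethylase LSD1 that works beside HDAC1 and HDAC2 in CoREST, was 28.3, 27.9 and 28.03 FPKM in the silenced libraries and 65.7, 58.8 and 63.5 FPKM in the controls (log2 fold change -1.15, standard error 0.0453, adjusted p = 1.61e-05, limma). PHF21A and HMG20B, both of the CoREST complex as well, were lower by log2 fold changes of -0.52 and -0.51 (adjusted p = 0.000504 and 0.00212). When the list was sorted by complex, after the values were seen, 5 of 9 CoREST subunits, 7 of 11 NuRD subunits, 7 of 15 SIN3 subunits and 2 of 3 MiDAC subunits fell. These are 55.6%, 63.6%, 46.7% and 66.7%, beside the 23.1% of all genes that fell. RBBP4 and RBBP7, which both fell, are counted in NuRD and again in SIN3, so that these shares are not separate. In NCoR/SMRT, the complex of HDAC3, limma gave 0 of 5 subunits lower, also at an unadjusted p under 0.05, and 1 higher, with a median log2 fold change of 0.02. A rise was also seen for 2 SIN3 subunits (13.3%, against 20% for NCoR/SMRT and 19.4% of all genes).

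Among the subunits of acetyltransferase complexes, 18 of 53 tested fell and 7 rose (34% and 13.2%, beside 23.1% and 19.4% of all genes), with a median log2 fold change of -0.11. POLE3, a histone-fold subunit shared by ATAC and DNA polymerase epsilon, was 16.9, 16.7 and 17.5 FPKM in the silenced libraries and 34.3, 35.3 and 37.9 FPKM in the controls (log2 fold change -1.07, adjusted p = 2.08e-05, limma). ACTL6A, an actin-like subunit shared by the TIP60 complex and the SWI/SNF remodelers, was 24.3 ± 0.524 against 37.3 ± 0.193 FPKM (log2 fold change -0.62, adjusted p = 2.87e-05). TADA2B, the adaptor of KAT2A in SAGA, was called higher, with 3.46 ± 0.103 against 2.34 ± 0.328 FPKM (log2 fold change 0.55, adjusted p = 0.00648). By complex, 4 of 12 TIP60 subunits fell and 2 rose, 5 of 10 ATAC subunits fell and 1 rose, and 3 of 16 SAGA subunits fell and 3 rose. Of the MOZ/MORF and HBO1 subunits 3 of 9 fell and 1 rose, of the NSL subunits 4 of 8 fell and 1 rose, and of the MSL subunits 2 of 3 fell. The shares that fell ran from 18.8% for SAGA to 66.7% for MSL, beside 23.1% of all genes. Shared subunits are counted in each of their complexes, among them TRRAP, TADA3 and WDR5, which fell, and SGF29, which rose.

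Among the other readers, 12 of 27 tested fell and 6 rose (44.4% and 22.2%, beside 23.1% and 19.4% of all genes), with a median of -0.14. PBRM1, the polybromo subunit of a SWI/SNF complex, was the only one called, with 3.72, 3.68 and 3.25 FPKM against 5.62, 5.17 and 5.47 FPKM (log2 fold change -0.60, adjusted p = 0.000786, limma). Among the other acetyltransferases, 4 of 19 fell and 5 rose (21.1% and 26.3%), the share that fell being near that of all genes. ESCO2, which acetylates cohesin during DNA replication, was the only one called, with 1.34 ± 0.0776 against 2.24 ± 0.178 FPKM (log2 fold change -0.70, adjusted p = 0.0025).

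Of the 23 suppliers tested, 7 fell and 5 rose (30.4% and 21.7%, beside 23.1% and 19.4% of all genes), and the median was -0.05. LDHA and LDHB, the lactate dehydrogenase subunits, were called lower with 135.3 ± 2.36 against 233.6 ± 6.94 FPKM and 4.33 ± 0.153 against 9.05 ± 2.02 FPKM (log2 fold changes -0.79 and -1.02, adjusted p = 2.08e-05 and 0.00182). ACSS1, the mitochondrial acetyl-CoA synthetase, was the remaining one called lower (log2 fold change -0.70, adjusted p = 0.000684). NMNAT2, which makes NAD from nicotinamide mononucleotide, was called higher with 5.78, 5.95 and 6.01 FPKM against 3.92, 4.25 and 3.91 FPKM (log2 fold change 0.54, adjusted p = 0.000384). ACLY, the main cytosolic source of acetyl-CoA, was 43.8 ± 1.73 against 43.2 ± 1.61 FPKM with overlapping groups. Alanyl-tRNA synthetase AARS1, described as a lactyltransferase, was 45.0 ± 0.666 against 44.7 ± 1.59 FPKM (adjusted p = 0.874). ACLY, AARS1 and NCOA2 were named for their roles with their values known, and PHF21A, HMG20B and ACSS1 to complete the calls of their lists after their values were seen.

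**Figure D4:**
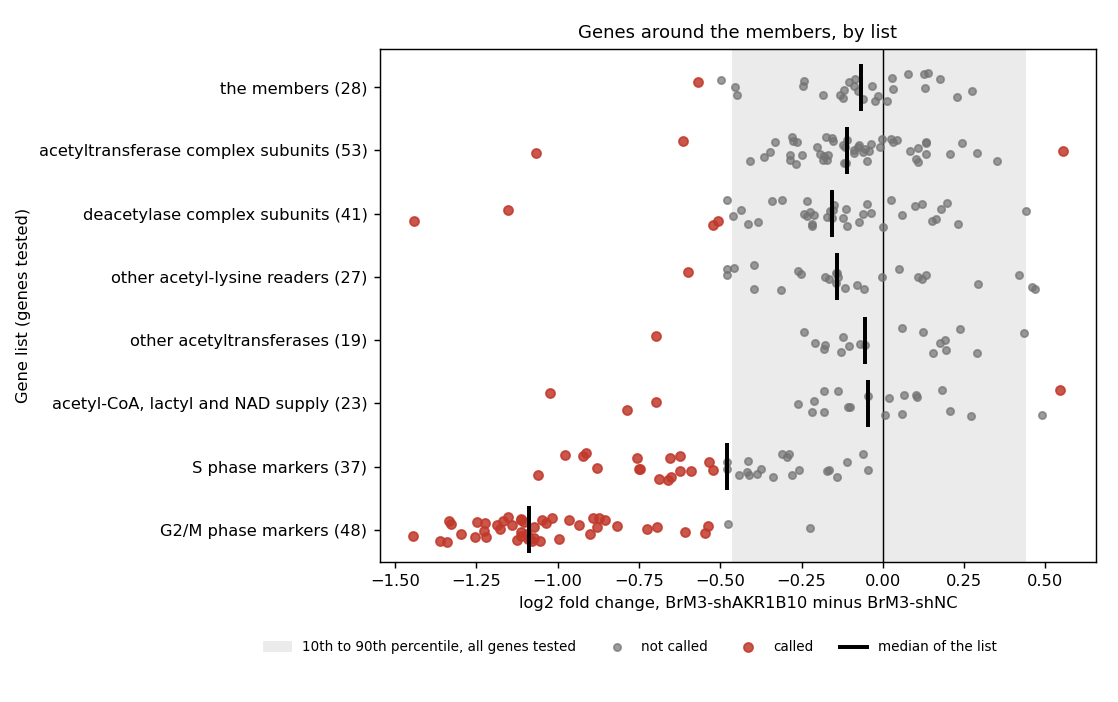
log2 fold change of every tested gene of the 28 members, the 5 lists around them and the S and G2/M phase markers, with the median of each list as a bar and the range from the 10th to the 90th percentile of all genes in grey. The medians run from -0.05 to -0.16 for the 5 lists, against -0.48 for S phase and -1.09 for G2/M phase markers.

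**Figure D5:**
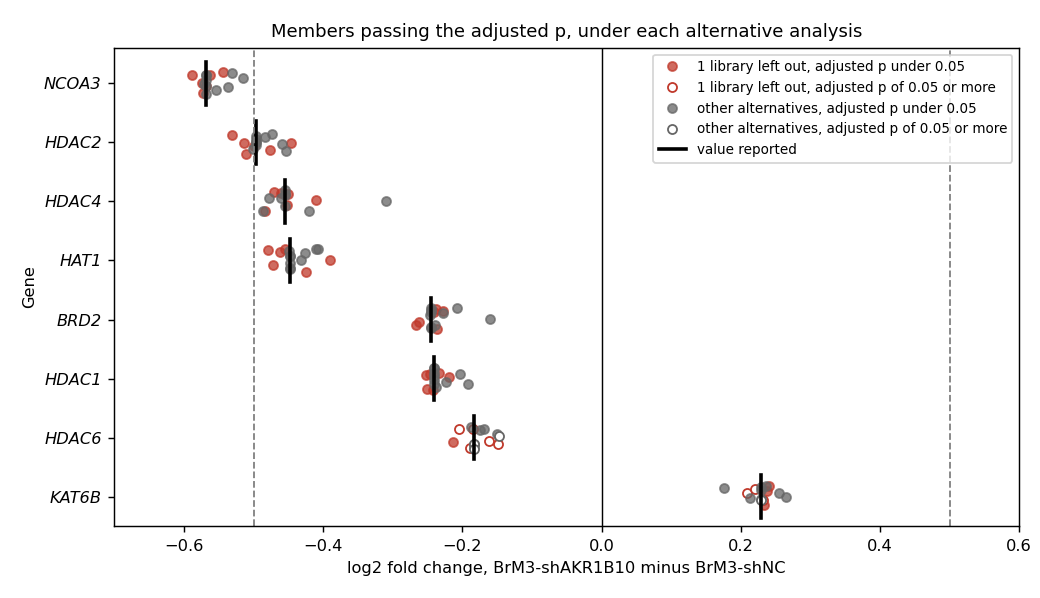
log2 fold change of the 8 genes with an adjusted p under 0.05 in each alternative analysis, with the reported value as a bar, open points where the adjusted p was 0.05 or more, and dashed lines at the call threshold. NCOA3 stays beyond -0.5 in all 16 analyses, HDAC2 straddles that line, and only HDAC6 and KAT6B have open points.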

How the data were processed

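Poly(A) RNA of 3 BrM3-shAKR1B10 and 3 BrM3-shNC libraries was sequenced as paired ends. Per the submitters' notes, the authors aligned reads with HISAT2 2.0.5 and counted them with featureCounts 1.5.0-p3, and they deposited FPKM per gene. Whether counting used strand is not given in the sources used here. All 58735 genes match GENCODE 29 (GRCh38). FPKM times gene length gave whole reads for 100% of values (within 0.1 read), and the authors' divisor per library already holds a scaling between libraries.

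Genes with a mean of at least 1 FPKM were fitted with limma 3.58.1 in R 4.3.3 (mean-variance trend, group as the only term) on log2(FPKM + 0.1), a scale that understates changes of low genes, with Benjamini-Hochberg adjustment. The script was tested on simulated data. Differences are BrM3-shAKR1B10 minus BrM3-shNC, and a call needs an adjusted p under 0.05 and a log2 fold change beyond 0.5. The members and lists were chosen with earlier results of these data known. Named genes are all 32 members, AKR1B10 and, per list, up to 2 lowest and 2 highest calls whose groups do not overlap, apart from the genes said to be named for another reason. Alternatives were another pseudocount (1 or 0.01), filter (none, or 5 FPKM), scaling (TPM or quantile), variance model, test (voom on recovered reads), gene set, fold threshold (1), the replicate number as a block, and each library left out.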

Additional observations from a re-analysis of the deposited data

How the results depend on the processing

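Of the 8 genes that passed the adjusted p, 6 (NCOA3, HDAC1, HDAC2, HAT1, HDAC4 and BRD2) passed under every alternative in which they were tested (15 or 16). HDAC6 lost the adjusted p with TPM scaling (0.0891) and with no filter (0.0831), and of the 20 that did not pass, 5 (KAT2A, KAT5, KAT7, HDAC10 and SIRT7) passed under at least 1 alternative. Genes called lower numbered 1, and were 2 with a pseudocount of 0.01, 0 with a log2 fold change threshold of 1, and 1 to 2 when a library was left out. The single gene passing the adjusted p upward became 3 with TPM scaling, 0 with a mean of at least 5 FPKM (18 members tested), 2 without the mean-variance trend, 2 with protein-coding genes only, 2 with quantile scaling and 5 with voom on recovered reads, and 0 to 1 when a library was left out. Over all genes, 980 were called lower and 766 higher, against 852 and 878 with TPM scaling and 976 and 761 with quantile scaling. They were 532 and 290 of 7355 with at least 5 FPKM, and 967 and 852 with voom. Without the trend they were 973 and 737, and with protein-coding genes only 878 and 534 of 10777. The 11 pathway genes called lower, beside 980 of all genes, became 6 with at least 5 FPKM (532 of all genes). They were 7 with a pseudocount of 1 (708 of all genes) and 4 with a threshold of 1. The 2 called higher, beside 766 of all genes, became 4 with TPM scaling (878 of all genes). They were 0 with each of at least 5 FPKM (290 of all genes), a pseudocount of 1 (497 of all genes) and a threshold of 1. A higher fold threshold gives no higher count by construction. The filter of 5 FPKM removed KAT6B (mean 2.87 FPKM) from the test. It also removed SAP30, PHF21A, PBRM1, ESCO2, ACSS1, TADA2B and NMNAT2, whose means over the libraries were under 5 FPKM. The cause of the other shifts was not tested.

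A log2 fold change moved by over 1.5 times under at least 1 alternative for 16 of the 20 genes that did not pass and for 1 of the 8 that did (BRD2). The sign turned for members near 0. KAT8 was 0.021 with TPM scaling, 0.016 with quantile scaling, 0.0026 with voom and -0.038 to 0.015 with a library left out. HDAC7 was 0.012 with TPM and 0.0088 with quantile scaling. NCOA1 was 0.0018 with TPM scaling and -0.11 to 0.039 with a library left out. With a library left out, HDAC5 ranged from -0.014 to 0.080, HDAC11 from -0.042 to 0.072 and BRD3 from -0.14 to 0.0059.

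Replicate numbers shared by the groups did not pair the libraries (correlations of deviations -0.0155, 0.00388 and 0.00383). With the replicate block, 967 genes were called lower and 719 higher, beside 980 and 766 without it, 6 members fell and 1 rose, and the adjusted p was 0.0897 for HDAC6, 0.0577 for KAT6B and 0.0487 for SIRT7, while NCOA3 stayed called lower at 0.00194. KAT2B, HDAC8, HDAC9 and SIRT4 stayed under 1 FPKM and outside the main test. Few reads limit any comparison of KAT2B, HDAC9 and SIRT4. HDAC8 had 261 to 331 reads over 22986 bases, and with no filter its log2 fold change was 0.20 (adjusted p = 0.532, limma).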
